A study of Homo sapiens with 16 samples.

Results

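The HOX cluster genes are the protein-coding genes whose symbol is HOXA, HOXB, HOXC or HOXD followed by a number, and 36 of the 39007 symbols in the table met this rule. They comprised 11 genes of HOXA, 9 of HOXB, 7 of HOXC and 9 of HOXD, while antisense genes with a HOX name were left out. RNA was sequenced from 16 libraries of T24 bladder cancer cells, with 4 libraries in each of the parental phase P0, the early phase P3, the intermediate phase P7 and the late phase P15. P0 was parental T24, and P3, P7 and P15 were successive stages of GRC1, a single gemcitabine-resistant line that was selected from T24 by repeated exposure to gemcitabine, a nucleoside analog that blocks DNA synthesis. All phases were grown in the same medium with serum. The titles of all 16 libraries carry the letters NT, which the labels do not explain, and whether gemcitabine was present at sampling is not given in the sources used here. GRC1 is 1 of 4 resistant lines of the study, so a difference between phases describes this line. The labels do not say that the 4 libraries of a phase came from separate cultures, and p-values therefore measure the spread between libraries, which may be technical.

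HOX genes encode homeodomain transcription factors that give cells their position along the body axis. Within each cluster the genes lie in the order of their paralog number, and genes of low number are used toward the head while genes of high number are used toward the tail. Adult epithelia and fibroblasts keep a HOX pattern that reflects where they came from, and in the lower urinary tract the high paralogs, such as those of group 13, take part in development. HOX proteins bind DNA together with the TALE cofactors PBX and MEIS, Polycomb complexes hold silent HOX genes silent and MLL complexes keep active ones active.

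Upstream sequences were printed for 3 members because they show the start sites that noncoding genes of the cluster cross or that belong to a member with a higher level in P15. Of the 36 members, 19 had a promoter in the RefSeq table (26 windows, build GRCh38.p14), cut here to the 250 bases before the start. Capitals mark the letters CCAAT on either strand.
HOXA13 (chr7:27200092-27200341, minus strand): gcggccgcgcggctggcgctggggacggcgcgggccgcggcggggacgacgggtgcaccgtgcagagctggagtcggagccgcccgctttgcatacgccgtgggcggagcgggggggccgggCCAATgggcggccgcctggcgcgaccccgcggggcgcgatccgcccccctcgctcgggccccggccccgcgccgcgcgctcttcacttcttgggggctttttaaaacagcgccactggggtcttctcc
HOXD1 (chr2:176188418-176188667, plus strand): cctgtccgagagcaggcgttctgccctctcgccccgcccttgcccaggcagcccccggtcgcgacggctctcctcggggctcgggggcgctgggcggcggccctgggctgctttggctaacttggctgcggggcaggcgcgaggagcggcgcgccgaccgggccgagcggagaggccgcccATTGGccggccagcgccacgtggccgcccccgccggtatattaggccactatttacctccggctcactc
HOXC4 (chr12:54016638-54016887, plus strand): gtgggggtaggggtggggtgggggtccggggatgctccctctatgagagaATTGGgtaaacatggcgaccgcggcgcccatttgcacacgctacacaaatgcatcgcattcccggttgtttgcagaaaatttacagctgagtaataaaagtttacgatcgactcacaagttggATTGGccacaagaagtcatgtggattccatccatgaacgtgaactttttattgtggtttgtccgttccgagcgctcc
The HOXA13 window lay inside the noncoding gene HOTTIP (chr7:27198575-27207259, plus strand), which is transcribed in the opposite direction, and the HOXD1 window lay inside HAGLR (chr2:176164051-176188958, minus strand). The HOXC4 window was also listed for HOXC5, so it does not belong to HOXC4 alone. HOXA13 held 40 CG dinucleotides, HOXD1 held 31 and HOXC4 held 14, against a median of 11 over 35116 RefSeq windows of the same length. CCAAT, read on both strands, occurred in 32.0% of those windows, and in all 3 windows shown. Other member windows, such as those of HOXD8, HOXD11 and HOXA11, held none. The 3 windows were chosen, so they give no share for the members. The letters are a description of these windows and not of a bound factor.

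The deposited values are log2 of CPM plus 1, where CPM is the read count of a gene scaled to the total of its library. Estimated depth was 33.8 to 50.0 M counts per library, so that 3 counts corresponded to 0.06 to 0.0888 CPM. Phases were compared with limma, using the 13249 genes whose mean exceeded 1 CPM, and a gene was called where the Benjamini-Hochberg adjusted p was below 0.05 and the log2 fold change was 1 or more in size. Of the 36 members, 28 passed this filter, 9 in HOXA, 9 in HOXB, 6 in HOXC and 4 in HOXD. Above 1 CPM in all 16 libraries were 23 of them. The other 5 (HOXA4, HOXA6, HOXA7, HOXA13 and HOXB5) passed although a phase lay lower, so a member of this kind could pass through the phases where it was high.

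Late phase P15 differed from the other phases in a large part of the HOX genes. Against P0, 12 of the 28 tested members were called, while 23.6% of all genes were called in this comparison. HOXC10 and HOXB2 rose, and HOXA5, HOXA6, HOXA10, HOXA13, HOXB5, HOXB6, HOXB7, HOXB8, HOXB13 and HOXC6 fell. Of all genes, 12.1% were called higher and 11.4% lower, so the 2 members that rose were a share of 7.14% and the 10 that fell a share of 35.7%. HOXA6, HOXA13 and HOXB5, among those that fell, had means of 0.177, 0.91 and 0.394 CPM in P15. They passed the filter through the other phases, so the counts called and called lower are a description. The median log2 fold change was -0.40 over the tested members and 0.04 over all genes. The call depended on the pseudocount. With 5 in place of 1, limma called 7 members (14.9% of all genes), HOXC10 higher and HOXA13, HOXB5, HOXB6, HOXB7, HOXB8 and HOXB13 lower. By cluster the median, with the pseudocount of 1, was -0.75 in HOXA, -1.96 in HOXB, 0.20 in HOXC and -0.17 in HOXD.

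The 10 members that fell from P0 to P15 were also called lower in P15 against P3 and against P7. HOXA6, HOXA13 and HOXB5 are among them, so this count is a description too. For all genes, 8.24% were called lower in P15 against each of the other 3 phases and 9.27% higher, and HOXC10 was the single member called higher against each. Against P3, 13 members were called (27.1% of all genes), with HOXB9, HOXC10 and HOXC13 higher. Against P7, 13 members were called (25.5% of all genes), with HOXB2, HOXB9 and HOXC10 higher. With a pseudocount of 5 the counts were 6 against P3 (17.5% of all genes) and 8 against P7 (16.3% of all genes). The 3 comparisons share the P15 libraries. With the limma adjusted p alone, 25 members passed for P15 against P0, 7 higher and 18 lower (45.3% of all genes higher and 40.9% lower). Against P3, 24 passed (87.2% of all genes), 9 higher (46.1%) and 15 lower (41.1%), and against P7, 25 passed (86.4%), 9 higher (46.3%) and 16 lower (40.1%). Of all 36 members, 23 had their lowest phase mean in P15 and 10 their highest. These counts include members near the floor, such as HOXD12 and HOXD13. They were not made over all genes, so they give no result about the members.

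**Figure D1:**
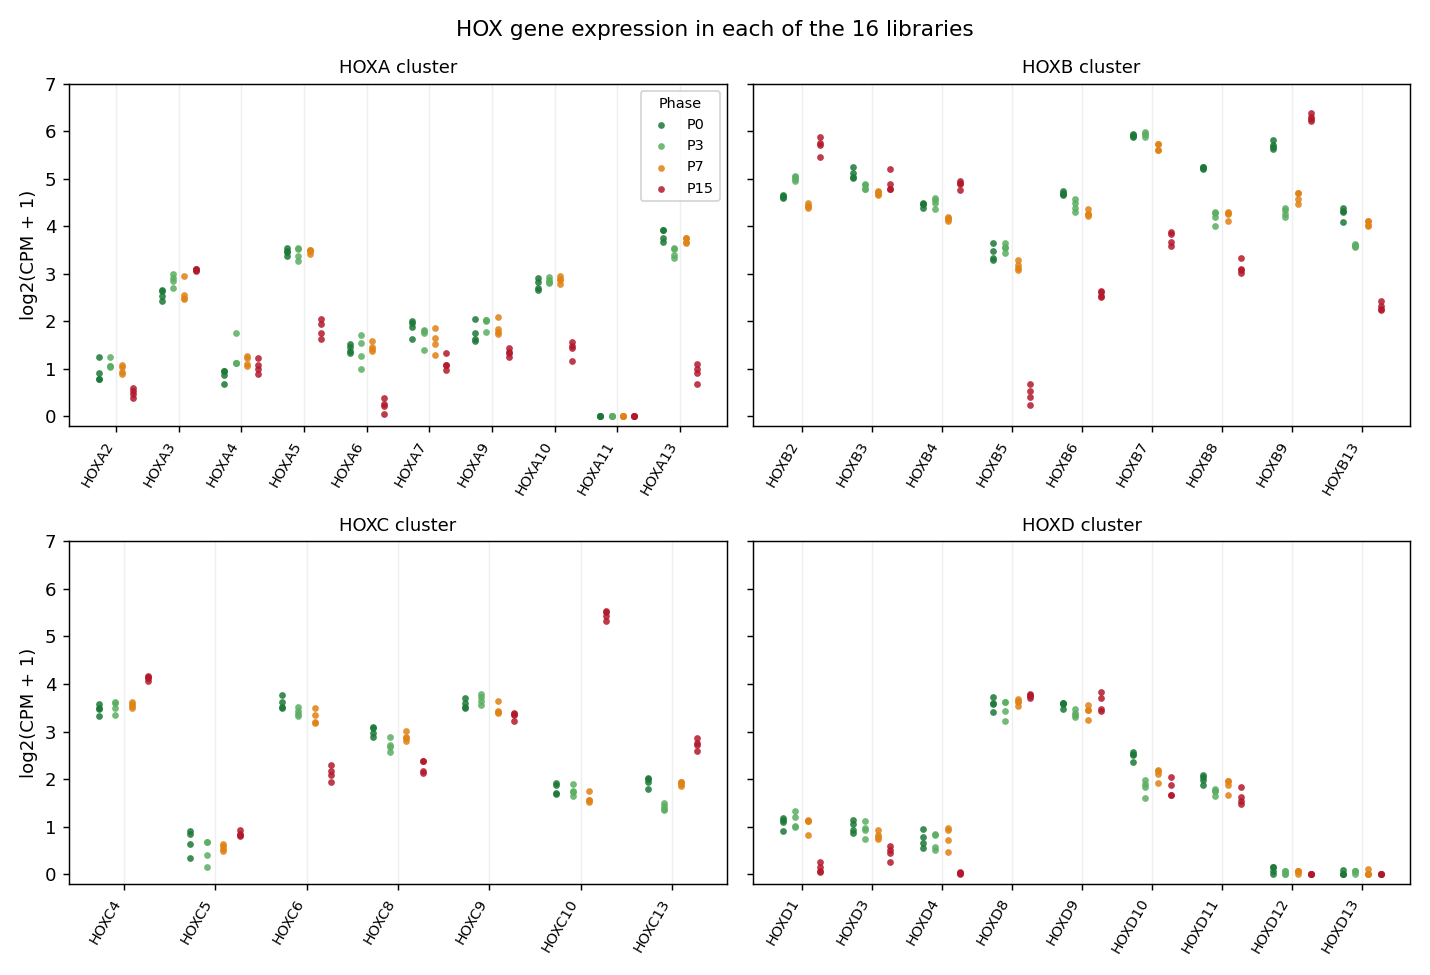
Deposited log2(CPM + 1) values (vertical axis) of HOX genes in each library, by cluster, with 4 points per phase for P0, P3, P7 and P15. The 4 P15 points of HOXC10 lie between 5.33 and 5.54, above all points of the other phases, and those of HOXB5 lie at or below 0.69.

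Few members were called among the first 3 phases. Between P3 and P0, limma called 2 members, HOXB8 and HOXB9, both lower (4.46% of all genes were called, 2.51% lower), and between P7 and P0 it called HOXB9, lower (3.37% of all genes, 1.52% lower). With a pseudocount of 5, HOXB9 alone was called for P3 (2.19% of all genes) and 0 members for P7 (1.53% of all genes) against P0, and with 0.1, HOXB8 and HOXB9 for P7 (5.37% of all genes). With the limma adjusted p alone, 15 members passed for P3 (68.7% of all genes) and 15 for P7 (62.1% of all genes) against P0. No member was called between P7 and P3 (1.83% of all genes), although 13 of the 28 had a limma adjusted p below 0.05 (58.2% of all genes) and 14 an unadjusted p below 0.05. No member was called higher or lower in P0, P3 or P7 against each of the other 3 phases, as were 0.589% and 0.355% of all genes for P0, 0.159% and 0.181% for P3 and 0.211% and 0.0981% for P7. The members' medians were -0.08 for P3 against P0, -0.13 for P7 against P0 and -0.04 for P7 against P3 on the log2 scale.

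In HOXB (chr17:48540894-48728750, build GRCh38), a block of neighbouring central genes fell in P15. HOXB5, HOXB6, HOXB7 and HOXB8, which act in the neck and trunk of the embryo, lie next to each other. HOXB7 had log2(CPM + 1) values of 5.88, 5.89, 5.94 and 5.93 in P0, of 5.87, 5.95, 5.95 and 5.98 in P3, of 5.61, 5.61, 5.72 and 5.72 in P7 and of 3.87, 3.59, 3.84 and 3.67 in P15. The P15 libraries lay below all others, and those of P7 lay below those of P0 and P3. The fold change was -2.17 (SE 0.05) on the log2 scale for P15 against P0, with a limma adjusted p of 1.1e-21, and the mean level went from 59.1 to 12.4 CPM.

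HOXB5 had less than 1 CPM in all P15 libraries. Its values were 3.47, 3.64, 3.29 and 3.33 in P0, 3.54, 3.64, 3.57 and 3.43 in P3 and 3.09, 3.29, 3.13 and 3.19 in P7. In P15 they were 0.41, 0.25, 0.69 and 0.53. The P15 libraries were far below the rest, with a mean of 0.394 CPM against 9.85 CPM in P0. On the log2(CPM + 1) scale the difference was -2.96 (SE 0.09, limma adjusted p = 1.9e-19), and with a pseudocount of 0.1 it was -4.4.

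HOXB6 had values of 4.65, 4.75, 4.67 and 4.69 in P0 and of 2.62, 2.51, 2.63 and 2.53 in P15, with P3 between 4.31 and 4.57 and P7 between 4.22 and 4.36. The P15 libraries did not overlap any other phase, and the P3 and P7 libraries lay below those of P0. The log2 fold change against P0 was -2.12 (SE 0.06, limma adjusted p = 2.7e-20) in P15. Exons of other genes covered 32.9% of the exon bases of HOXB6, and the strand setting of the counting is not given in the sources used here, so reads of overlapping genes cannot be told apart. For HOXB7, HOXB8, HOXB9 and HOXB13 this share was 0.

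HOXB8 was lower in P3 and P7 and lower again in P15. Its values were 5.22, 5.20, 5.25 and 5.25 in P0, 4.20, 4.27, 4.30 and 4.01 in P3, 4.28, 4.26, 4.11 and 4.30 in P7 and 3.10, 3.09, 3.01 and 3.33 in P15. The libraries of P3 and P7 overlapped each other, below P0 and above P15. The log2 fold change against P0 was -1.04 (SE 0.07) in P3, -0.99 (SE 0.07) in P7 and -2.10 (SE 0.07) in P15, with limma adjusted p-values of 4.1e-12, 1.2e-11 and 6e-19. The P3 call of HOXB8 rested on 1 library, since the fold change was -0.97 without P3 replicate 4.

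HOXB9, the next gene toward the high paralogs and a regulator of the rib cage and the mammary gland, moved the other way in P15. Its values were 5.70, 5.63, 5.81 and 5.66 in P0, 4.26, 4.35, 4.38 and 4.19 in P3 and 4.69, 4.69, 4.47 and 4.57 in P7. In P15 they were 6.26, 6.30, 6.22 and 6.38. No library overlapped between any pair of the 4 phases, with P3 lowest and P15 highest. The log2 fold change against P0 was -1.41 (SE 0.06) in P3, -1.09 (SE 0.06) in P7 and 0.59 (SE 0.06) in P15, with limma adjusted p-values of 1.9e-16, 3.1e-14 and 6.2e-10. From P7 to P15 the difference was 1.68 (SE 0.06, limma adjusted p = 5.2e-19).

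HOXB13, which lies apart from the rest of the cluster and is known from the prostate and the hindgut, was lowest in P15 and was also lower in P3 than in P0 and P7. Its values were 4.29, 4.32, 4.08 and 4.38 in P0, 3.56, 3.63, 3.61 and 3.58 in P3, 4.00, 4.02, 4.12 and 4.12 in P7 and 2.24, 2.27, 2.42 and 2.32 in P15. P0 and P7 overlapped, and P15 was below all other libraries. Against P0 the log2 fold change was -0.67 (SE 0.07) in P3 and -1.96 (SE 0.07) in P15, with limma adjusted p-values of 5e-09 and 1.3e-18.

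Of the low paralogs of HOXB, HOXB2 rose. HOXB2, a hindbrain patterning gene, had values of 4.63, 4.65, 4.60 and 4.61 in P0, of 4.95 to 5.05 in P3, of 4.38 to 4.50 in P7 and of 5.45, 5.70, 5.87 and 5.76 in P15. All P15 libraries were above the rest, and the 4 phases did not overlap. From P0 to P15 the log2 fold change was 1.07 (SE 0.06, limma adjusted p = 3.4e-14), or 23.6 to 51.1 CPM, and with a pseudocount of 5 it was 0.96 and no longer called.

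HOXB4, known from blood stem cells, had means of 4.45, 4.50, 4.16 and 4.88 in P0, P3, P7 and P15 on the log2(CPM + 1) scale. Its P15 libraries, from 4.77 to 4.96, were above those of the other phases, and the log2 fold change against P0 was 0.43 (SE 0.05, limma adjusted p = 1.1e-07). HOXB3 had means of 5.11, 4.82, 4.70 and 4.92 in P0, P3, P7 and P15. Its P15 libraries overlapped those of P0 and P3, and its change against P0 was -0.19 (SE 0.07, limma adjusted p = 0.015), with an adjusted p of 0.059 to 0.069 when P0 replicate 2, P15 replicate 1 or P15 replicate 4 was left out. Across HOXB, all 9 members had a limma adjusted p below 0.05 and a lower mean in P7 than in P0, as did 34.2% of all genes.

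**Figure D2:**
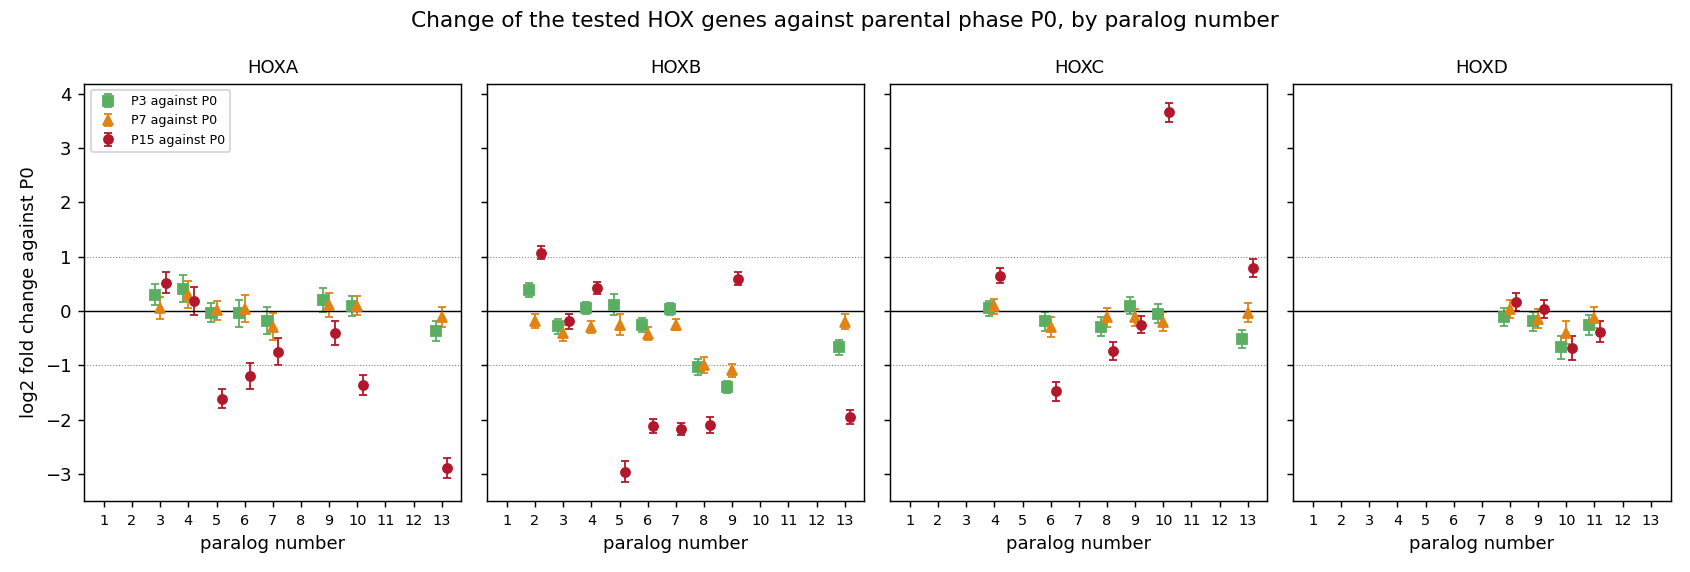
Log2 fold change against P0 (vertical axis) of tested HOX genes by paralog number (horizontal axis), in 1 panel per cluster, for P3 (squares), P7 (triangles) and P15 (circles) with 95% intervals from limma. P15 lies below -1 for HOXB5 to HOXB8 and at 0.59 for HOXB9, and at 3.66 for HOXC10, while HOXB8 and HOXB9 are the only members at or below -1 in P3.

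In HOXC (chr12:53938831-54056030), HOXC10 had the largest rise of the 28 tested members. HOXC10 marks lumbar and hindlimb levels in the embryo. It had values of 1.87, 1.92, 1.70 and 1.68 in P0, of 1.89, 1.72, 1.74 and 1.64 in P3, of 1.56, 1.56, 1.75 and 1.52 in P7 and of 5.44, 5.54, 5.33 and 5.52 in P15. The first 3 phases overlapped and P15 was far above them. The mean was 2.47 CPM in P0 and 43.0 CPM in P15, a log2 fold change of 3.66 (SE 0.08, limma adjusted p = 2.1e-22) on the log2(CPM + 1) scale. It was 4.07 with a pseudocount of 0.1 and 2.68 with a pseudocount of 5.

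HOXC13, a gene of the hair follicle and nail, had values of 1.79, 1.93, 2.03 and 2.00 in P0, between 1.36 and 1.5 in P3, of 1.86 to 1.94 in P7 and of 2.86, 2.75, 2.72 and 2.59 in P15. P3 was lowest and P15 highest, while P0 and P7 overlapped. The log2 fold change was 0.79 (SE 0.08, limma adjusted p = 2.5e-09) from P0 to P15 and 1.31 (SE 0.08, limma adjusted p = 1.5e-13) from P3 to P15.

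HOXC4, the lowest HOXC paralog, had values of 3.47, 3.58, 3.50 and 3.33 in P0 and of 4.14, 4.07, 4.13 and 4.16 in P15. P15 was above all other libraries, and P0, P3 and P7 overlapped. The fold change from P0 to P15 was 0.65 (SE 0.07, limma adjusted p = 3.6e-09) on the log2 scale. Between HOXC4 and HOXC10 along the cluster, HOXC6 and HOXC8, which pattern the chest region, were lower in P15. HOXC6 had values of 3.50, 3.62, 3.76 and 3.52 in P0 and of 1.93, 2.17, 2.09 and 2.29 in P15, with P3 and P7 at 3.18 to 3.52. Its log2 fold change from P0 was -1.48 (SE 0.09, limma adjusted p = 5e-14), with no overlap. HOXC8 had phase means of 3.00, 2.72, 2.89 and 2.27 in P0, P3, P7 and P15, and its change of -0.74 (SE 0.08, limma adjusted p = 1.6e-08) from P0 to P15 was below the fold threshold. HOXC9 had phase means of 3.58, 3.68, 3.47 and 3.33, with a change of -0.25 (SE 0.07, limma adjusted p = 0.0026). Exons of other genes on the same strand covered 17.5% of the exon bases of HOXC4 and 16.1% of HOXC6. Reads from these bases cannot be told apart.

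In HOXA, on chromosome 7, 7 of the 9 tested members had a lower mean in P15 than in P0 at a limma adjusted p below 0.05 (40.9% of all genes). Of these, 4 passed the fold threshold (11.4% of all genes). HOXA6 and HOXA13 are among the 4 and passed the filter through the other phases, so this count is a description. HOXA13, which acts in the urogenital tract and the digits, lies at the high end of the cluster. Its values were 3.93, 3.66, 3.75 and 3.93 in P0, 3.54, 3.34, 3.53 and 3.39 in P3, 3.65, 3.76, 3.66 and 3.76 in P7 and 1.11, 0.99, 0.92 and 0.68 in P15. The P15 libraries were far below the others, and P3 lay below P0 and P7. The mean was 13.1 CPM in P0 and 0.91 CPM in P15, and the log2 fold change was -2.89 (SE 0.09, limma adjusted p = 8.4e-20).

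HOXA5, a gene of lung and trunk development, had values of 3.45, 3.38, 3.54 and 3.48 in P0, of 3.26 to 3.55 in P3, of 3.41 to 3.51 in P7 and of 2.06, 1.62, 1.76 and 1.95 in P15. P0, P3 and P7 overlapped, and P15 was below them. From P0 to P15 it changed by -1.62 on the log2 scale (SE 0.09, limma adjusted p = 9.2e-15). HOXA10, needed in the uterus and hindlimb, had values of 2.91, 2.82, 2.70 and 2.67 in P0 and of 1.57, 1.16, 1.48 and 1.44 in P15, with P3 and P7 at 2.78 to 2.96. Again P15 alone was apart, with a log2 fold change of -1.36 (SE 0.09, limma adjusted p = 2.7e-13).

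HOXA6 had values of 1.37, 1.46, 1.53 and 1.34 in P0 and of 0.38, 0.22, 0.26 and 0.06 in P15, where 1 library was under the floor of 3 counts. The log2 fold change was -1.20 (SE 0.12, limma adjusted p = 1.9e-09), and P15 overlapped no other phase. HOXA7 had phase means of 1.87, 1.69, 1.58 and 1.12 and a change of -0.75 (SE 0.12, limma adjusted p = 4.5e-06) from P0 to P15. Exons of other genes covered 40.1% of the exon bases of HOXA6, 62.5% of HOXA7 and 47.8% of HOXA4, so their values are uncertain.

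HOXA3, HOXA4 and HOXA9 changed less. HOXA3, needed for the thymus and parathyroid, had values of 2.42, 2.63, 2.66 and 2.54 in P0 and of 3.07, 3.11, 3.05 and 3.11 in P15. Its P15 libraries were the highest of all, and the log2 change from P0 was 0.52 (SE 0.09, limma adjusted p = 1.8e-05). HOXA9 had phase means of 1.75, 1.96, 1.86 and 1.35 and a change of -0.40 (SE 0.10, limma adjusted p = 0.0011) from P0 to P15. HOXA4 had phase means of 0.87, 1.28, 1.17 and 1.05, and its difference between P15 and P0 of 0.18 had a 95% interval from -0.07 to 0.44 (limma adjusted p = 0.16).

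In HOXD (chr2:176092721-176190907), none of the 4 members above 1 CPM was called in any comparison. Of all genes, 23.6 to 27.1% were called in the comparisons of P15 and 1.83 to 4.46% in the others. With 4 members, the absence of calls gives no result about the cluster. HOXD8 had values of 3.58, 3.42, 3.72 and 3.61 in P0 and of 3.75, 3.71, 3.76 and 3.78 in P15, and HOXD9 had 3.60, 3.48, 3.58 and 3.61 in P0 and 3.47, 3.70, 3.83 and 3.43 in P15. In both genes the libraries of P0 and P15 overlapped. The difference between P15 and P0 was 0.17 for HOXD8 (95% interval 0 to 0.33, limma adjusted p = 0.055) and 0.04 for HOXD9 (95% interval -0.13 to 0.21, limma adjusted p = 0.65). HOXD10, a limb and spinal cord gene, had phase means of 2.50, 1.83, 2.10 and 1.81. It was lower than in P0 by -0.67 in P3, -0.40 in P7 and -0.69 in P15 on the log2 scale (SE 0.10 each, limma adjusted p = 3.5e-06, 0.0016 and 1.2e-06). HOXD11 had phase means of 2.00, 1.74, 1.87 and 1.62 and a change of -0.38 (SE 0.09, limma adjusted p = 0.00068) from P0 to P15. Exons of other genes covered 24.4% of the exon bases of HOXD8, 18.2% of HOXD10 and 21.4% of HOXD11.

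The 8 members with a mean of at most 1 CPM were HOXA2, HOXA11, HOXC5, HOXD1, HOXD3, HOXD4, HOXD12 and HOXD13, and 5 of these lie in HOXD. HOXA2 exceeded 1 CPM in every library of P3 only, and the other 7 in no phase. HOXA11 was listed at 0 in all 16 libraries. HOXD12 exceeded 3 counts in 2 libraries and HOXD13 in 1, none of them in P15.

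The low HOXD paralogs were named after their values were seen. HOXD1 had values of 1.13, 1.09, 0.90 and 1.19 in P0 and of 0.07, 0.16, 0.04 and 0.26 in P15, and HOXD4 had 0.78, 0.95, 0.55 and 0.66 in P0 and 0.00, 0.03, 0.04 and 0.03 in P15. Both genes lay lower in all P15 libraries than in any other library. With the filter at a mean above 0.1 CPM, which let 33 members and 18386 genes be tested, the limma log2 fold change from P0 to P15 was -0.95 (SE 0.09, adjusted p = 1.6e-09) for HOXD1 (-1.01 against P3, adjusted p = 4.8e-10, past the fold threshold), -0.55 (SE 0.09, adjusted p = 7.7e-06) for HOXD3 and -0.71 (SE 0.10, adjusted p = 1.2e-06) for HOXD4. HOXD1 shares 60.1% of its exon bases with genes on the other strand. HAGLR reaches to base 176188958 and so overlaps only the start of HOXD1 (chr2:176188668-176190907). Other genes therefore make up part of this share. The reads of HOXD1 cannot be told apart from those of the genes that overlap it.

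The positional code was described as the share of each member in the summed HOX level, on a scale of CPM per kb of exon so that genes of unequal length can be compared. The summed level was 169.8 ± 0.859, 146.8 ± 2.74, 134.3 ± 2.34 and 138.5 ± 3.36 CPM per kb in P0, P3, P7 and P15 (SD, n = 4 libraries). On this scale the libraries of P15 and P7 overlapped. The order of the totals depended on the scale, since without HOXB7 they were 130.9, 107.1, 101.5 and 130.3 CPM per kb, and undivided by length 401.6, 336.1, 313.8 and 346.5 CPM. No test was made of these shares, because they are scores over chosen genes.

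Central paralogs held a smaller share of the summed level in P15, and both ends of the code a larger one. Paralogs 4 to 8 made 60.7% ± 0.452, 63.9% ± 0.382 and 61.95% ± 0.325 of the summed CPM per kb in P0, P3 and P7, and 32.0% ± 1.25 in P15 (SD, n = 4 libraries). Paralogs 9 to 13 made 28.7% ± 0.593, 21.45% ± 0.213, 26.16% ± 0.497 and 47.92% ± 1.07 in the same order, and paralogs 1 to 3 made 10.6% ± 0.358, 14.65% ± 0.202, 11.9% ± 0.206 and 20.08% ± 1.79. In each of the 3 groups the 4 libraries of P15 stood apart from those of all other phases. The larger shares at both ends did not come from a rise of most members. Of the 11 tested members of groups 9 to 13, 7 fell from P0 to P15 and 3 rose. Those that rose were HOXB9, HOXC10 and HOXC13. Of the 4 tested members of groups 1 to 3, 2 rose and 2 fell. These counts use a limma adjusted p below 0.05, which 40.9% of all genes passed as lower and 45.3% as higher. Without HOXB7, the share of paralogs 1 to 3 was 19.22 to 23.8% in P15 and 19.88 to 20.22% in P3, so that these libraries overlapped.

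The mean paralog number over all clusters, weighted by CPM per kb, was lowest in P3. In the order of the phases it was 6.99 ± 0.0432, 6.45 ± 0.00624, 6.82 ± 0.0225 and 6.82 ± 0.0896 (SD, n = 4 libraries). By cluster it moved in both directions. Between P0 and P15 it moved from 6.53 ± 0.132 to 4.73 ± 0.152 in HOXA and from 6.78 ± 0.0355 to 5.88 ± 0.135 in HOXB. It moved from 7.61 ± 0.067 to 8.76 ± 0.0609 in HOXC and from 8.41 ± 0.0822 to 8.78 ± 0.0354 in HOXD. The means of HOXA and HOXB therefore shifted to lower paralogs, and those of HOXC and HOXD to higher ones, each without overlap of the P0 and P15 libraries. In HOXD, HOXD10 and HOXD11 were themselves lower in P15 than in P0. The low paralogs HOXD1, HOXD3 and HOXD4, which did not pass the filter, had 0.592, 0.27 and 0.593 CPM per kb in P0. In P15 they had 0.052, 0.0991 and 0.0154.

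**Figure D3:**
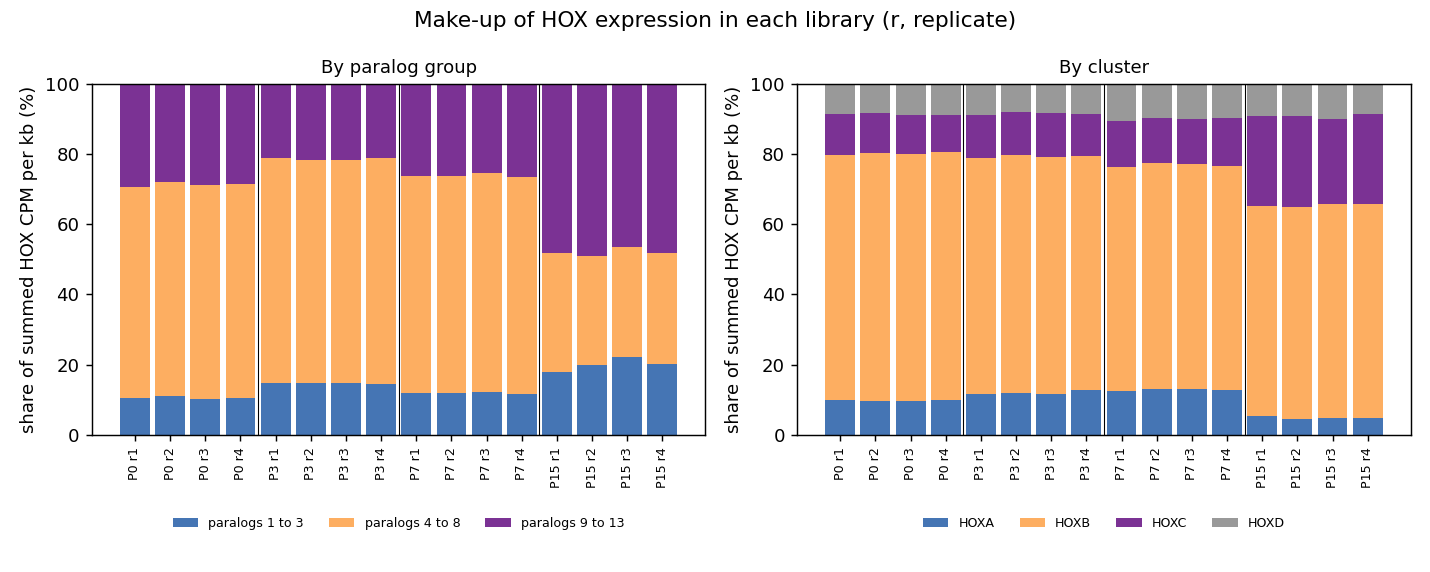
Share of the summed HOX level in CPM per kb (vertical axis, percent) for each of the 16 libraries, by paralog group (left) and by cluster (right). Paralogs 4 to 8 fill 60.03 to 64.33% of the bars in P0, P3 and P7 and 31.09 to 33.82% in P15, and HOXC fills 24.11 to 25.87% in P15.

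The shares of the clusters also differed between the phases. From P0 to P15, HOXC made 11.22% ± 0.331, 12.24% ± 0.311, 13.04% ± 0.282 and 25.26% ± 0.794 of the summed CPM per kb (SD, n = 4 libraries), and its summed level went from 19.04 ± 0.546 to 34.98 ± 1.11 CPM per kb between P0 and P15. HOXA made 9.83% ± 0.126, 12.01% ± 0.598, 12.8% ± 0.252 and 4.95% ± 0.334, and its level went from 16.69 ± 0.174 to 6.85 ± 0.356 CPM per kb. HOXB stayed the largest cluster with 70.2% ± 0.38, 67.2% ± 0.493, 64.0% ± 0.23 and 60.5% ± 0.586, and HOXD kept 8.70% ± 0.228, 8.53% ± 0.408, 10.1% ± 0.446 and 9.34% ± 0.614. The P15 libraries of HOXD overlapped those of the other phases, and those of HOXA, HOXB and HOXC did not.

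Few genes carried these shares. In P0, P3 and P7 the highest member per kb was HOXB7, with 38.9 CPM per kb (22.9% of the total) in P0, 39.7 in P3 and 32.7 (24.4%) in P7. In P15 HOXB7 was in place 5 with 8.18 CPM per kb (5.91%). HOXB9 led P15 with 29.9 CPM per kb (21.6%), ahead of HOXB2 with 20.8 (15.0%), HOXC10 with 18.1 (13.1%) and HOXB4 with 14.2 (10.3%). HOXC10 had been in place 26 of 36 in P0 with 1.04 CPM per kb (0.615%).

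Most of the tested high paralogs were lower in P3 than in P0. Of the 11 tested members of groups 9 to 13, 7 had a lower mean in P3 than in P0 at a limma adjusted p below 0.05 and 0 a higher one, while 37.3% of all genes were lower and 31.4% higher. The 7 were HOXA13, HOXB9, HOXB13, HOXC13, HOXD9, HOXD10 and HOXD11, and only HOXB9 passed the fold threshold. From P3 to P7, 5 of the 11 were higher (HOXA13, HOXB9, HOXB13, HOXC13 and HOXD10) and 1 lower (HOXC9), against 30.3% and 28% of all genes. These 2 comparisons share the P3 libraries. At the low end, P3 was above both P0 and P7 for HOXA3 and HOXB2, and below P0 for HOXB3.

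The noncoding genes inside the clusters also differed between P15 and P0. The list held 23 names, of which 20 were in the table (PRAC1 and PRAC2 among them are protein-coding) and 11 passed the filter. From P0 to P15, 2 were called higher (12.1% of all genes) and 4 lower (11.4% of all genes), and the median log2 fold change was -0.59. HAGLR, antisense to the low end of HOXD, had values of 5.45, 5.42, 5.39 and 5.36 in P0 and of 2.02, 1.82, 2.29 and 1.97 in P15, with P3 and P7 at 4.83 to 5.50. P15 was far below the rest, by -3.38 (SE 0.07, limma adjusted p = 2.5e-23) on the log2 scale.

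HOXB-AS3, which spans HOXB4, HOXB5 and HOXB6 on the other strand, had values of 2.82, 3.04, 2.57 and 2.73 in P0 and of 0.23, 0.28, 0.42 and 0.12 in P15, a log2 change of -2.53 (SE 0.11, limma adjusted p = 8.8e-17) with no overlap. HOXC-AS2, which overlaps HOXC9 on the other strand, went from 0.84, 0.82, 0.63 and 0.66 in P0 to 2.96, 2.86, 2.98 and 2.94 in P15, with P3 and P7 at 0.76 to 1.23. Both noncoding genes called higher passed the filter through P15 and had to differ, so their calls are a description. Likewise, HOXB-AS3, HAGLROS and HOTTIP lay below 1 CPM in every P15 library and passed the filter through the other phases. The count called lower is therefore a description too. HAGLROS, inside HAGLR on the other strand, had 2.12, 1.87, 1.96 and 2.10 in P0 and was listed at 0 in all 4 libraries of P15. In each of these genes the P15 libraries lay apart from the P0 libraries, HOXC-AS2 above and the others below. The noncoding genes HOTTIP and HOTAIR were named after their values were seen. HOTTIP, a noncoding RNA known to keep the high HOXA genes active, had values of 1.84, 2.05, 2.14 and 1.86 in P0 and of 0.00, 0.13, 0.00 and 0.00 in P15. HOTAIR, the repressive RNA of the HOXC cluster that is known from cancer, was above 0 in 3 of 16 libraries and reached at most 0.08.

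**Figure D4:**
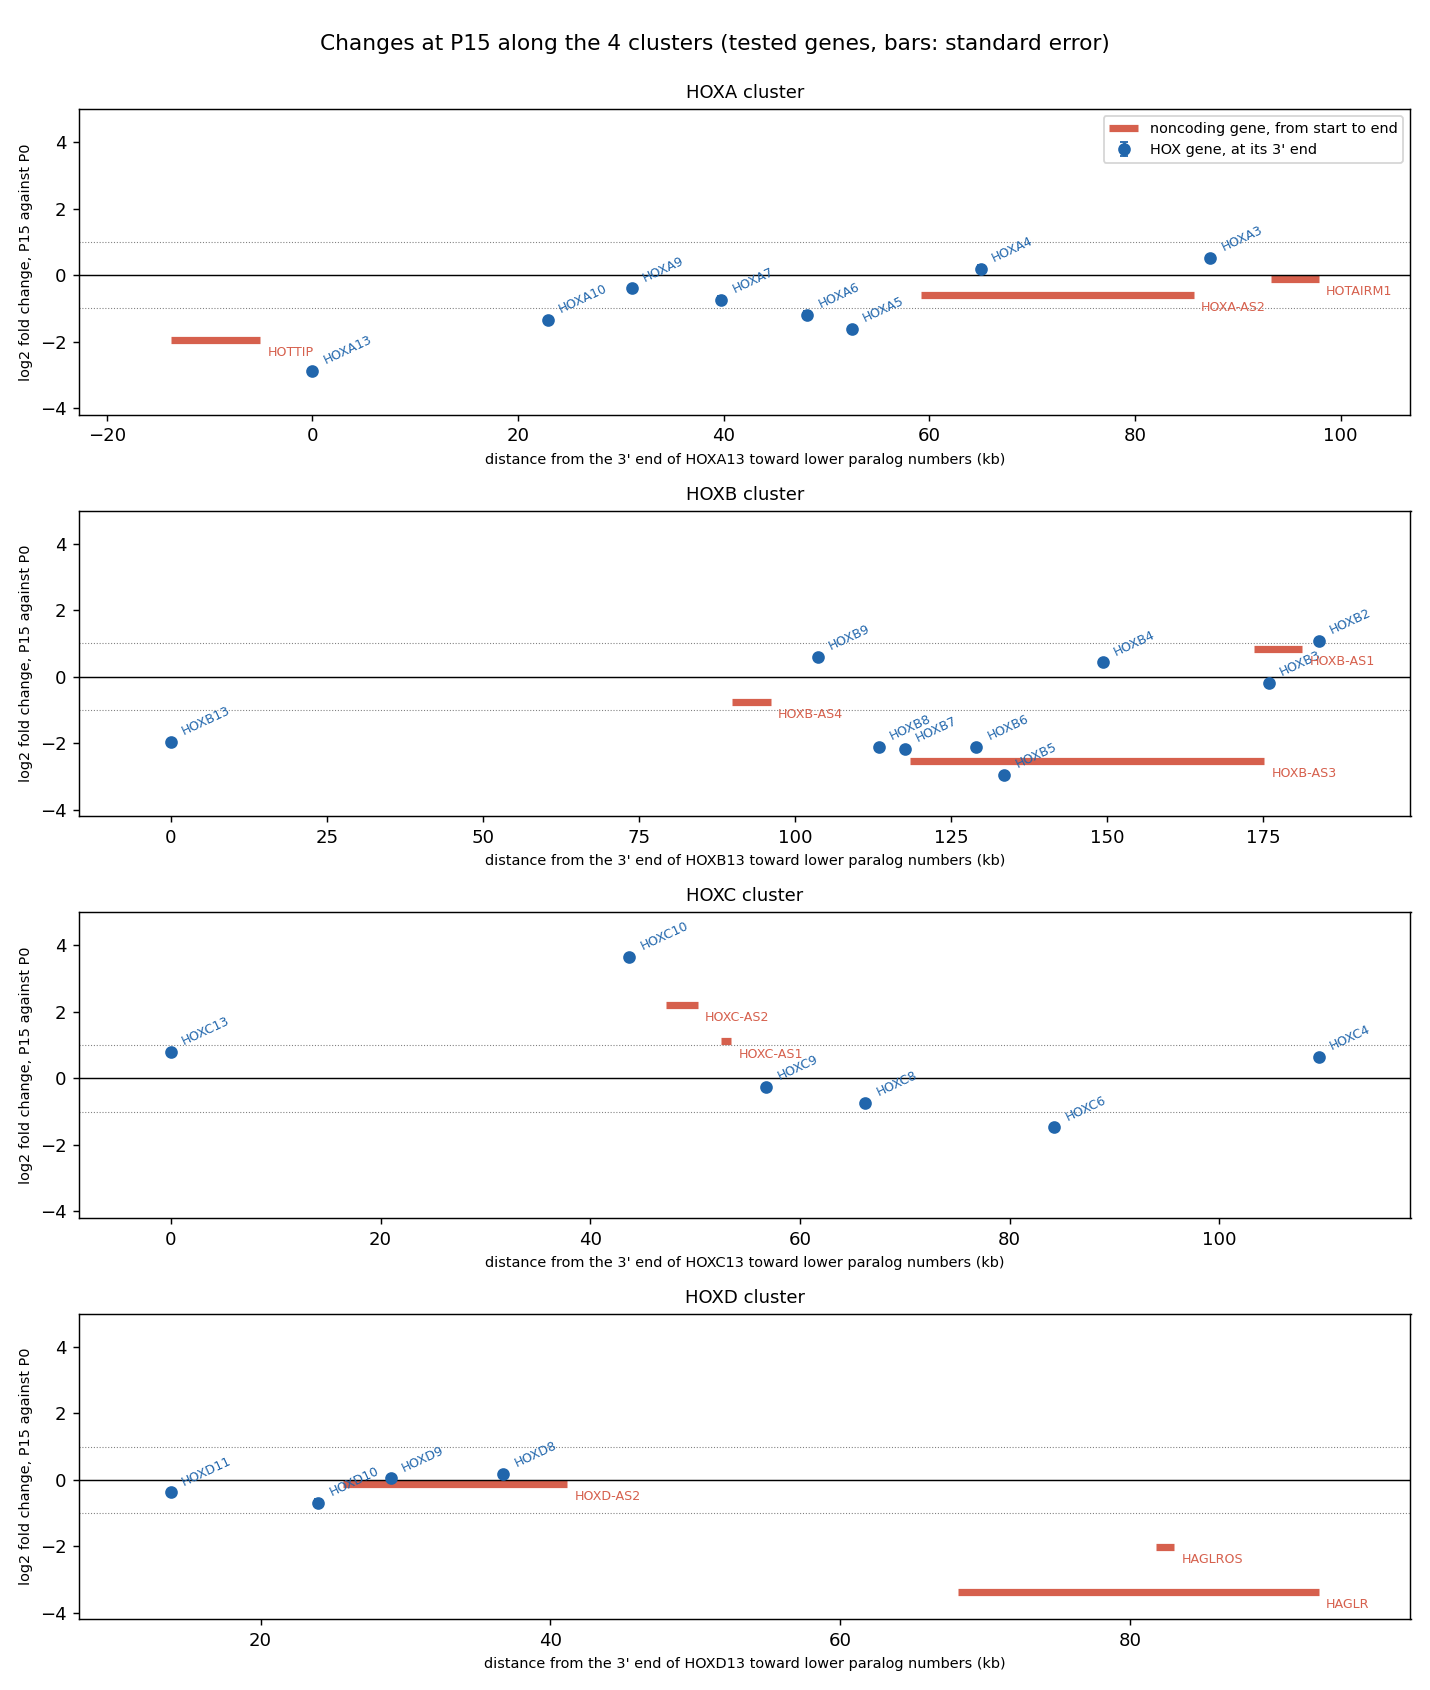
Log2 fold change of P15 against P0 (vertical axis) for tested HOX genes (points, at their 3 prime end, with the standard error) and noncoding genes (bars, from start to end) by distance from the 3 prime end of the highest paralog in kb (horizontal axis), in 1 panel per cluster. Values below -1 lie at HOXB5 to HOXB8, at HOXA5, HOXA6, HOXA10 and HOXA13 and at HAGLR (-3.38), among others, the highest values lie at HOXC10 and HOXC-AS2, and HAGLROS, listed at 0 in P15, is drawn at a value that depends on the pseudocount.

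Genes that flank the clusters were measured as a comparison. Of 22 flanking protein-coding genes in the table, 17 passed the filter and 0 were called by limma between P15 and P0 (23.6% of all genes), although 15 had an adjusted p below 0.05 (86.2% of all genes). Their median log2 fold change was 0.10. ATP5G2, a subunit gene of ATP synthase, was called higher in P15 against P3 by 1.08 (SE 0.04, limma adjusted p = 4.2e-18) and against P7 by 1.01 (SE 0.04, limma adjusted p = 1.8e-17). EVX2, the homeobox gene beside HOXD13, was at 0 in all 16 libraries.

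Among the cofactors of HOX proteins, 3 of 8 tested TALE genes were called higher in P15 than in P0 (12.1% of all genes) and 0 lower, and 2 of the 3 passed the filter only through P15, so the count gives no support. MEIS3 had 1.15, 0.99, 0.90 and 0.69 in P0 and 3.17, 3.58, 3.53 and 3.43 in P15, and it too passed the filter through P15. PBX3 had 4.95, 5.07, 5.05 and 5.01 in P0 and 6.32, 6.39, 6.27 and 6.38 in P15, a log2 change of 1.32 (SE 0.05, limma adjusted p = 4.5e-18). The median over the 8 was 0.64 on the log2 scale.

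Genes of the chromatin complexes that act on HOX clusters were compared between P15 and P0. Of 27 tested Polycomb genes, 24 had a limma adjusted p below 0.05 (86.2% of all genes), with a median log2 fold change of 0.06. Of the 27, 4 were called higher in P15 (12.1% of all genes) and 0 lower. They were JARID2 with 1.48 (SE 0.04, limma adjusted p = 9e-20), PHC1 with 1.26 (SE 0.05, limma adjusted p = 1.2e-16), MTF2 with 1.13 (SE 0.06, limma adjusted p = 2.6e-15) and PCGF1 with 1.10 (SE 0.07, limma adjusted p = 8.9e-14). Of 13 tested genes of MLL complexes and H3K27 demethylases, 1 was called higher (12.1% of all genes) and 0 lower. This was KDM6B, a demethylase of the Polycomb mark. Its values were 4.31, 4.38, 4.29 and 4.38 in P0, 4.99 to 5.10 in P3, 4.79 to 5.01 in P7 and 6.60, 6.68, 6.68 and 6.63 in P15, and the log2 change from P0 to P15 was 2.31 (SE 0.05, limma adjusted p = 2.6e-23).

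Receptors and factors that induce HOX genes were a list of 9, of which 8 were in the table and 4 were tested. RARG, a retinoic acid receptor, was higher in P15 than in P0 by 1.58 (SE 0.05, limma adjusted p = 2.4e-19), and RXRA, its partner receptor, was lower by -1.36 (SE 0.04, limma adjusted p = 4e-19). Both were also called against P3 and P7 in the same direction. CDX1, a caudal homeobox factor of the gut, was at 0 in all 16 libraries.

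Markers of cell types were examined because P15 stood apart in HOX genes. Of 14 urothelial markers, 6 were tested. GATA3, FOXA1, PPARG, KRT7 and KRT8 were called lower in P15 than in P0 (11.4% of all genes), for example KRT7 from 9.90 to 3.64. The sixth, KRT18, had 8.85 to 8.92 in P0 and 9.21 to 9.38 in P15, a log2 change of 0.43 (SE 0.04, limma adjusted p = 7.4e-11). UPK1B, UPK3A, KRT5 and KRT20 were at or near 0 in every phase, while UPK1A had a mean of 0.10 in P0 and 1.57 in P15, so most uroplakins were low in parental T24 too. The summed urothelial level was 2120 to 2190 CPM in P0, 2380 to 2510 in P3, 1770 to 1920 in P7 and 696 to 775 in P15. The summed level of 8 fibroblast markers was 7.26 to 8.45 CPM in P0, 1.78 to 6.47 in P3, 5.57 to 6.54 in P7 and 46.6 to 51.7 in P15, mostly COL1A1 and COL3A1, while DCN was at 0 in P15. Of leukocyte markers, with PTPRC at or near 0, the sum was 6.16 to 8.5 CPM in P0, 1.83 to 2.2 in P3, 5.63 to 6.19 in P7 and 0.0778 to 0.212 in P15. Of endothelial markers it was 6.0 to 7.95 CPM in P0, 0.436 to 0.648 in P3, 0.254 to 1.02 in P7 and 0.515 to 1.09 in P15, so this sum was low from P3 on. Traces of COL3A1 stood at 1.61 in P3 replicate 3 and at most at 0.08 in the other P3 libraries, and leaving this library out left the count of members called between P3 and P0 at 2. The part of these markers in the HOX differences was not tested. In bulk RNA, fewer cells that express a gene and less RNA of it per cell cannot be told apart.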

How the data were processed

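RNA sequencing of 16 T24 libraries (4 per phase) was used. Per the labels and the study's methods, the authors aligned reads with STAR 2.6.1a to GRCh38 and counted them per gene with featureCounts, and the deposited values are log2 of CPM plus 1. The methods also name quantile normalization and median centring, which the table does not carry, since its low values lie on whole counts. The strand setting is not given in the sources used here. Columns were matched to libraries by title, and groups are the labelled phases. Library totals were estimated from the spacing of low values.

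Genes with a mean above 1 CPM were compared with limma 3.58.1 (R 4.3.3, variance trend, 1 coefficient per phase, all 16 libraries, Benjamini-Hochberg adjustment over 13249 genes). Fold changes are on the log2(CPM + 1) scale and understate those of low genes. Lengths and positions came from GENCODE 44, which lists 39 such genes. HOXB1, HOXC11 and HOXC12 were not analysed here. The code was tested on simulated data. Members above 1 CPM were named, except where a gene is not reported here, and at most 4 called genes per other list. Members and lists were chosen with earlier results of these data known. Alternatives covered pseudocounts, filters, scaling, blocks, lengths and left-out libraries. Figures used Python 3.11.15 and matplotlib 3.10.9.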

Additional observations from a re-analysis of the deposited data

Results flagged for a closer look

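In 5 of 136 groups of 4 libraries, 1 library stood apart from the other 3 by a gap that passed the 95% limit of Dixon's test, and chance alone gives about 1 group in 20, or 7. HOXA4 was higher in P3 replicate 1, at 1.75 on the log2(CPM + 1) scale, and the gap was 0.98 of the range. HOXA9 was lower in the same library, at 1.78, with a gap of 0.96. HOXA7 was lower in P3 replicate 3, at 1.40, with a gap of 0.85. HOXC9 was higher in P7 replicate 4, at 3.65, with a gap of 0.85. The share of HOXA in the summed CPM per kb was higher in P3 replicate 4, at 12.9%, with a gap of 0.86.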

How the results depend on the processing

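Of 3120 alternatives over 120 changes of members, 2996 (96.0%) kept direction and side of the threshold, 113 were weaker, 9 were stronger and 2 reversed. The reversed ones were HOXD9 in P15 against P0, at -0.06 with quantile normalization and -0.03 without P15 replicate 3, and the cause was not tested. With a pseudocount of 5, which shrinks low genes, limma called 1 member for P3 against P0, 0 for P7 against P0, 7 for P15 against P0, 6 for P15 against P3 and 8 for P15 against P7. With a pseudocount of 0.1 it called 2 for P7 against P0, and with quantile normalization 1 for P3 against P0. With no fold threshold the counts were 15, 15 and 25 for P3, P7 and P15 against P0, 13 for P7 against P3, 24 for P15 against P3 and 25 for P15 against P7. Leaving out 1 library gave 1 to 2 for P3 against P0 (1 without P3 replicate 4) and 1 to 2 for P7 against P0 (2 without P0 replicate 2, P7 replicate 1, P7 replicate 2 or P7 replicate 4).

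The replicate numbers did not pair the samples, since correlations of same-numbered deviations ran from -0.15 to 0.22. With a replicate block the counts were 2, 1 and 12 for P3, P7 and P15 against P0, 0 for P7 against P3, 13 for P15 against P3 and 13 for P15 against P7.

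Shares moved with the scale. With CPM not divided by exon length, the mean paralog number was 6.94 in P0, 6.34 in P3 and 6.59 in P15. HOXA made 11.5, 14.2, 15.0 and 5.68% in P0, P3, P7 and P15, HOXB 69.2, 65.2, 62.3 and 62.3%, HOXC 23.7% in P15, HOXD 8.07, 9.47 and 8.32% in P0, P7 and P15, and paralogs 4 to 8 51.6, 54.4, 52.5 and 27.7%. With log2 of CPM per kb plus 1 as weight, the mean was 6.94, 6.63 and 6.86 in P0, P3 and P7, HOXA made 19.0, 21.4, 21.1 and 13%, HOXB 48.4, 46.9, 45.9 and 45.3%, HOXC 17.9, 17.7, 18.3 and 27.4%, HOXD 14.6, 13.9, 14.8 and 14.3%, and paralogs 4 to 8 52.0, 52.7, 52.1 and 41.8%. With the longest transcript as length, the mean was 6.79, 6.26, 6.62 and 6.49, HOXC made 11.7, 12.8, 13.7 and 26.4%, HOXD 8.24, 7.82, 9.39 and 8.37%, and paralogs 4 to 8 59.7, 61.8 and 60.6% in P0, P3 and P7. Without HOXB7, the highest member per kb, the mean was 6.25 in P3 and 6.76 in P7, HOXA made 12.8, 16.5 and 17.0% and HOXD 11.3, 11.7 and 13.4% in P0, P3 and P7, HOXB 61.4, 55.1, 52.4 and 58.0%, HOXC 14.6, 16.8, 17.2 and 26.9%, and paralogs 4 to 8 49.0, 50.5, 49.7 and 27.7%. The mean of paralogs 1 to 3 in P15 was then 21.34%, against 20.08% in P3. Under each of these the share of paralogs 4 to 8 was lower in P15 than in the other phases, and that of HOXC higher.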
